A study of Mus musculus with 16 samples.

Results

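The T cell and NK cell genes described here are Gzma, Gzmb, Klrd1, Nkg7, Prf1, Il2rb, Cd3e, Cd3g, Cd8a and Cd4, measured in white adipose tissue of mice on Affymetrix whole-genome arrays. They were read from all probe sets that the platform's probe table assigns to 1 of these symbols and to no other gene. These are 10 genes of 18193 with such a probe set, and 17 probe sets of 45037. Prf1, Il2rb and Cd4 have 2 probe sets each, Cd8a has 5, and the other 6 genes have 1. The study compared 4 groups of 4 arrays each, 16 in all. Mice of the C57BL6/J strain were wild type without a Cre transgene, or carried FABP4-Cre and a deletion of Sirt1 that the labels call adipocyte-specific. From an age of 4 weeks, mice of both genotypes received either diet, low or high in fat, over 8 weeks, so that all were 12 weeks old at dissection. The Fabp4 promoter that drives this Cre is active in adipocytes and is known to be active in macrophages too. The fat depot, the sex of the mice, whether the wild-type mice carried floxed Sirt1, and whether each array is a separate mouse are not stated in the labels. The p-values below therefore measure the spread between these arrays, and their number limits the precision.

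T cells recognise antigen through a receptor whose signal is passed on by the CD3 chains, which Cd3e and Cd3g encode, while CD4 and CD8 are the coreceptors that separate helper from cytotoxic T cells. Cytotoxic T cells and NK cells kill target cells by releasing granules in which perforin, the product of Prf1, opens the way for the granzymes that Gzma and Gzmb encode. Both cell types live in white adipose tissue beside macrophages, and their numbers and activity there are known to shift in diet-induced obesity.

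The promoters are shown for Gzma and Prf1, because these granule genes moved in opposite directions in the comparisons below, and for Nkg7, a granule membrane gene that passed no test. The RefSeq promoter table (GRCm38.p6) held 7 of the 10 genes, and Klrd1, Il2rb and Cd4 were not among them. Each line gives the bases up to the annotated gene start, 5′ to 3′ on the gene's strand, with 3 motifs in capitals wherever they occur on either strand. The motifs are AGGTGT (bound by T-box factors such as T-bet and Eomes, ACACCT on the other strand), TGTGGT (bound by Runx factors, ACCACA on the other strand) and GGAAGT (bound by ETS factors, ACTTCC on the other strand). No 2 of the marked matches overlap. The windows are chr13:113100982-113101231 on the minus strand for Gzma, chr10:61297586-61297750 on the plus strand for Prf1 and chr7:43436888-43437137 on the plus strand for Nkg7.
Gzma: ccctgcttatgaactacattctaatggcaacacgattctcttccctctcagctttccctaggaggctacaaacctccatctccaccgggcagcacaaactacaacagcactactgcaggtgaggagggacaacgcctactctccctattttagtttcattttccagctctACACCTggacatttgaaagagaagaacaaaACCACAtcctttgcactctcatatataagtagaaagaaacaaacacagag
Prf1: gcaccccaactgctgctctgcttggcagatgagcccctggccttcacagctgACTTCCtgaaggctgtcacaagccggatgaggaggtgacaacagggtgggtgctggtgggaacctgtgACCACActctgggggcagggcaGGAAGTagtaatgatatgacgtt
Nkg7: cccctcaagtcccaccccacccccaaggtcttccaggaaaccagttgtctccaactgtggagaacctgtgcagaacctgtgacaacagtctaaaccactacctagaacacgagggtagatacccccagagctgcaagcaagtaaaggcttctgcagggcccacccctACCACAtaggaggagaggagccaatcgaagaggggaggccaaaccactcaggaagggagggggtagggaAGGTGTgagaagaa
The Gzma window of 250 bases held a T-box match that begins 80 bases before the gene start and a Runx match that begins 50 bases before it. The Nkg7 window of 250 bases held a Runx match 83 bases and a T-box match 14 bases before the start. The Prf1 window of 165 bases held ETS matches 113 and 23 bases and a Runx match 45 bases before the start. Among all 32851 promoters of the table, windows of 250 bases held the T-box motif in 11.8%, the Runx motif in 14.0% and the ETS motif in 19.7% of cases, and windows of 165 bases in 7.7%, 9.23% and 14.4%. The other 4 windows held 2 Runx matches for Gzmb, 1 T-box match each for Cd3e and Cd3g, and none of the 3 motifs for Cd8a. A match is a run of letters and not a shown binding site.

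Values are the authors' log2 expression values, on which a difference of 1 is a 2-fold change. Array medians lay between 4.34 and 4.46 and arrays of a group correlated at 0.987 to 0.996 over all probe sets. The single Sirt1 probe set averaged 9.43 in wild-type and 9.24 in knockout low fat arrays, and 8.97 and 8.74 in the high fat arrays. The genotypes overlapped and the differences of -0.19 and -0.22 did not pass the test (limma, adjusted p = 0.498 and 0.448). Where this probe set lies relative to the deleted part is not stated in the labels, so it does not check the deletion. The adipocyte gene Adipoq was bright in every array, at 13.19 to 13.68. Transcripts of skeletal muscle varied between arrays without a clear gap. In 5 arrays Tnnt3, a fast muscle troponin, reached a log2 value of 8, at 8.20 to 10.52 (wild-type low fat replicates 3 and 4, wild-type high fat replicate 3, knockout low fat replicate 2 and knockout high fat replicate 4). Wild-type high fat replicate 4 was just under that level, at 7.95, and lay above knockout high fat replicate 4 in Tnnc2, Ckm and Atp2a1. Wild-type high fat replicate 4 stands apart through bladder epithelium genes, with Upk2 at 10.64 against 2.61 to 3.81 elsewhere, and through Gata3, a T cell factor that is also a urothelial gene, at 8.39 against 2.72 to 3.80. Knockout low fat replicate 4 had the epithelial gene Cdh1 at 7.10 (10.31 in wild-type high fat replicate 4 and 2.10 to 4.98 in the other arrays) and the neutrophil gene S100a9 at 8.89 against 4.68 to 6.90 elsewhere. Calls that ended without the 5 muscle-bearing arrays, or without these and wild-type high fat replicate 4 (6 arrays), are given beside the results. No call of the T cell and NK cell genes ended without knockout low fat replicate 4, where the low fat genotype difference of Gzma was 2.12 (limma adjusted p = 0.00109).

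Wild-type mice fed the high fat diet had more Gzma and Klrd1 transcript than on the low fat diet, and less signal from the brighter of the 2 Prf1 probe sets. Gzma rose by 2.33, Klrd1 rose by 1.32 and Prf1 fell by 0.46. The T cell receptor chains Cd3e and Cd3g, the coreceptors Cd8a and Cd4, and Nkg7 and Il2rb did not pass the test. In Sirt1 knockouts none of the 9 genes tested passed the test for diet. On the low fat diet the knockouts differed from wild type in the same 3 genes, and on the high fat diet in none. Because wild-type low fat arrays enter both the wild-type diet comparison and the low fat genotype comparison, these results share their control values.

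**Figure D1:**
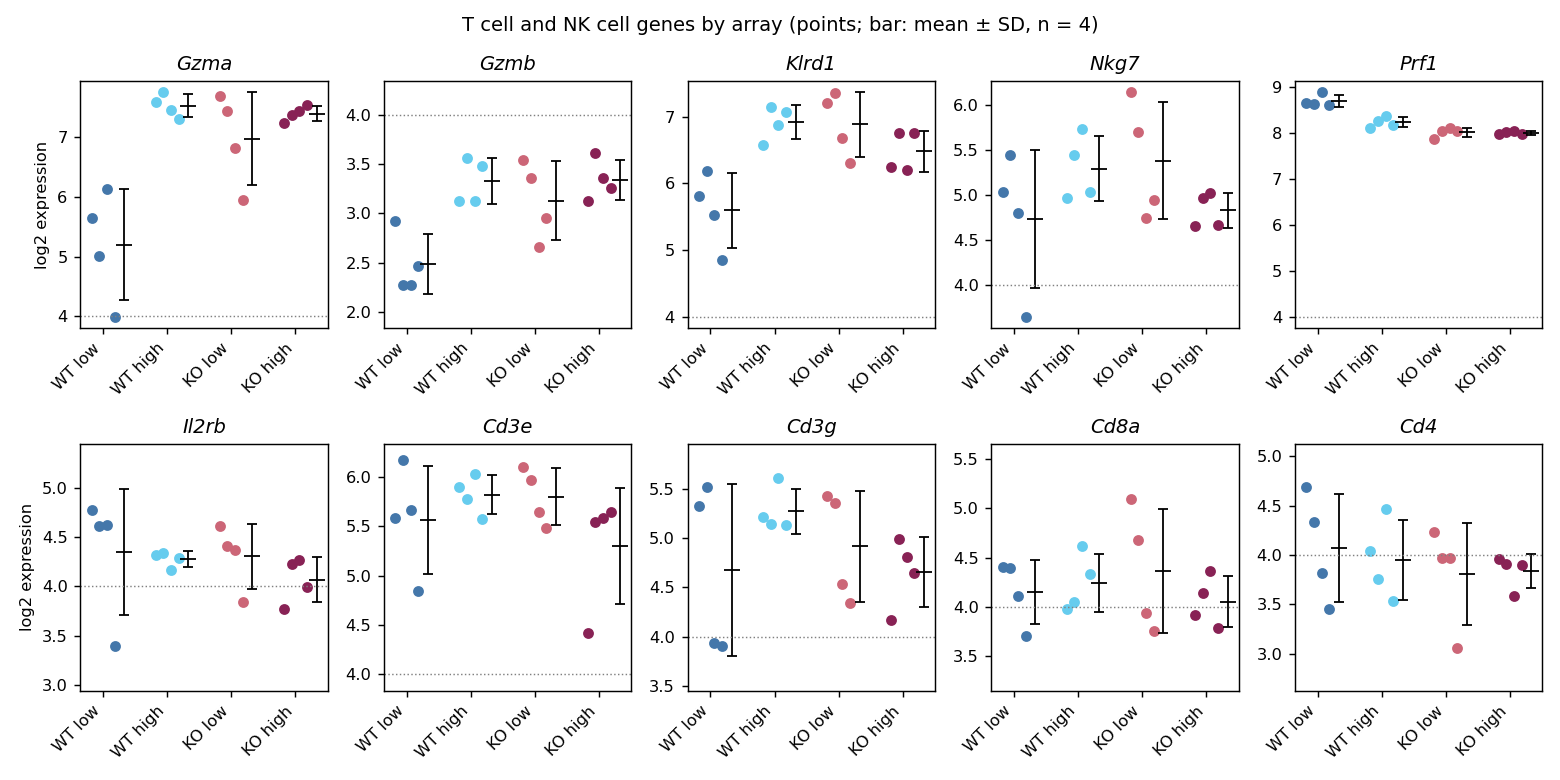
Log2 expression of the 10 genes (brightest probe set of each) in every array, by genotype (WT, wild type, or KO, knockout) and diet (low or high fat), with the mean and SD of each group of 4 as a bar and the filter level of 4 as a dotted line. The wild-type low fat arrays are the lowest for Gzma, at 4.00 to 6.14, apart from a knockout array at 5.96, and the highest for Prf1, at 8.61 to 8.89.

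Of the cytotoxic granule genes, Gzma encodes granzyme A, a serine protease of NK cells and cytotoxic T cells. Gzma read 5.66, 5.01, 6.14 and 4.00 in wild-type low fat replicates 1 to 4, 7.60, 7.76, 7.46 and 7.30 in wild-type high fat, 7.70, 7.45, 6.82 and 5.96 in knockout low fat, and 7.24, 7.38, 7.44 and 7.54 in knockout high fat. All 4 wild-type low fat arrays lay below every high fat array of either genotype, and 3 of the 4 knockout low fat arrays lay above all of them. The low fat groups were spread wide, at 5.20 ± 0.93 (SD, n = 4) for wild type and 6.98 ± 0.78 for knockout, and the high fat groups were tight, at 7.53 ± 0.19 and 7.40 ± 0.13. In the wild type Gzma rose by 2.33 on the high fat diet (SE 0.39, 95% interval 1.51 to 3.15, limma adjusted p = 0.000277). On the low fat diet Gzma was 1.78 higher in knockout than in wild type (SE 0.39, interval 0.96 to 2.60, adjusted p = 0.00486), although a knockout array at 5.96 fell under a wild-type array at 6.14. Both SEs rest on a spread pooled over all groups, so neither interval reflects the wider spread of the low fat groups. In order of the means, wild-type low fat stood lowest, and the knockout low fat, knockout high fat and wild-type high fat groups above it could not be separated from their neighbours, with a diet difference of 0.42 in the knockout (interval -0.40 to 1.24, adjusted p = 0.453) and a genotype difference of -0.13 on the high fat diet (interval -0.95 to 0.69, adjusted p = 0.86).

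The count of calls among the 9 tested genes has to be read against the share of all 12078 genes tested that passed. For diet in the wild type, 3 of the 9 passed, against 35.6% of all genes, so the members were called about as often as genes at large. In bulk tissue, fewer cells of a type and less RNA per cell cannot be told apart. With the 5 muscle-bearing arrays left out, the wild-type diet difference of Gzma was 2.22 (adjusted p = 0.00289) and the low fat genotype difference 1.49 (adjusted p = 0.0446). Leaving out wild-type high fat replicate 4 as well gave 2.34 (adjusted p = 0.00593) for diet and ended the genotype call (1.49, adjusted p = 0.0503).

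Gzmb, which encodes granzyme B, lay under a log2 value of 4 in every array, did not pass the filter and was not tested. Gzmb read 2.92, 2.28, 2.27 and 2.47 in wild-type low fat replicates 1 to 4, 3.12, 3.56, 3.12 and 3.48 in wild-type high fat, 3.55, 3.36, 2.66 and 2.95 in knockout low fat, and 3.13, 3.62, 3.36 and 3.26 in knockout high fat. The wild-type low fat arrays lay below all 8 high fat arrays and overlapped with the knockout low fat arrays. In a fit with no filter on low values the wild-type diet difference of Gzmb was 0.84 (limma adjusted p = 0.00486), at the dim end of the scale where values depend on the background correction.

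Prf1 encodes perforin, the protein that forms pores in the target cell membrane, and its values ran the other way. The Prf1 probe set 1450335_at read 8.67, 8.63, 8.89 and 8.61 in wild-type low fat replicates 1 to 4, 8.12, 8.27, 8.37 and 8.19 in wild-type high fat, 7.87, 8.05, 8.11 and 8.04 in knockout low fat, and 7.97, 8.02, 8.06 and 7.98 in knockout high fat. The 4 wild-type low fat arrays were the highest of all 16, the wild-type high fat arrays came next, and the 2 knockout groups overlapped at the bottom. Prf1 fell by 0.46 on the high fat diet in the wild type (SE 0.10, interval -0.67 to -0.25, limma adjusted p = 0.00182). On the low fat diet knockout minus wild type was -0.68 (SE 0.10, interval -0.89 to -0.48, adjusted p = 0.000226). The knockout groups differed by -0.01 between diets (interval -0.22 to 0.20, adjusted p = 0.96). In the high fat groups every knockout array lay below every wild-type array, with a difference of -0.23 (interval -0.44 to -0.02) that did not pass after adjustment (adjusted p = 0.132).

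The other Prf1 probe set, 1451862_a_at, read between 2.42 and 3.11 in all 16 arrays, with group means of 2.76 to 2.90, and did not show this order. It did not pass the filter, so the Prf1 result rests on 1450335_at. With the 2 probe sets averaged, the wild-type diet difference was -0.17 (adjusted p = 0.143), and the call was lost, while the low fat genotype difference was -0.27 (adjusted p = 0.0426). Which probe set follows the Prf1 transcript in this tissue was not tested. With the 5 muscle-bearing arrays left out, the 2 calls were kept (-0.46, adjusted p = 0.0426, for diet and -0.64, adjusted p = 0.0217, for genotype on the low fat diet). Without wild-type high fat replicate 4 as well, the diet call ended (-0.45, adjusted p = 0.108).

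Nkg7 encodes a granule membrane protein of NK cells and cytotoxic T cells. Nkg7 read 5.04, 5.44, 4.80 and 3.65 in wild-type low fat replicates 1 to 4, 4.96, 5.45, 5.73 and 5.04 in wild-type high fat, 6.14, 5.70, 4.75 and 4.95 in knockout low fat, and 4.66, 4.97, 5.03 and 4.67 in knockout high fat. Every pair of groups overlapped. The wild-type diet difference was 0.56 (interval -0.17 to 1.29, limma adjusted p = 0.217) and the low fat genotype difference 0.65 (interval -0.08 to 1.38, adjusted p = 0.201). Neither interval leaves out 0, and both reach past 1. With arrays weighted by their quality both passed (1.06, adjusted p = 0.0377, and 1.13, adjusted p = 0.0454), and without the 5 muscle-bearing arrays the diet difference turned to -0.09.

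Of the NK cell receptors, Klrd1 encodes CD94, the chain that pairs with NKG2 proteins to bind a nonclassical MHC molecule. Klrd1 read 5.81, 6.19, 5.53 and 4.86 in wild-type low fat replicates 1 to 4, 6.57, 7.15, 6.88 and 7.07 in wild-type high fat, 7.20, 7.35, 6.67 and 6.30 in knockout low fat, and 6.24, 6.75, 6.20 and 6.75 in knockout high fat. The wild-type low fat arrays lay below all 12 others, with hardly a gap between the highest of them (6.19) and the lowest knockout high fat array (6.20), and the remaining 3 groups overlapped with each other. Klrd1 rose by 1.32 with diet in the wild type (SE 0.27, interval 0.75 to 1.89, limma adjusted p = 0.00141). It was 1.29 higher in knockout than in wild type on the low fat diet (SE 0.27, interval 0.71 to 1.86, adjusted p = 0.00391). In the knockout the diet difference was -0.40 (interval -0.97 to 0.17, adjusted p = 0.291), and on the high fat diet the genotype difference was -0.43 (interval -1.01 to 0.14, adjusted p = 0.307). Without the 5 muscle-bearing arrays the diet difference was 0.93 (adjusted p = 0.0387), while the genotype difference of 0.73 lost its call (adjusted p = 0.152). Without wild-type high fat replicate 4 as well, the diet difference was 0.86 (adjusted p = 0.0986), and that call ended too.

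Il2rb encodes the beta chain shared by the receptors for interleukin 2 and interleukin 15, which NK cells and memory T cells depend on. The Il2rb probe set 1448759_at read 4.77, 4.61, 4.62 and 3.40 in wild-type low fat replicates 1 to 4, 4.32, 4.34, 4.17 and 4.29 in wild-type high fat, 4.61, 4.41, 4.36 and 3.84 in knockout low fat, and 3.77, 4.22, 4.27 and 4.00 in knockout high fat. The lowest value of the low fat groups came from replicate 4 in both genotypes, and every pair of groups overlapped. The diet difference was -0.07 in the wild type (interval -0.59 to 0.45, limma adjusted p = 0.841) and -0.24 in the knockout (interval -0.76 to 0.28, adjusted p = 0.503). Its other probe set, 1417546_at, read 2.26 to 2.67 throughout.

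**Figure D2:**
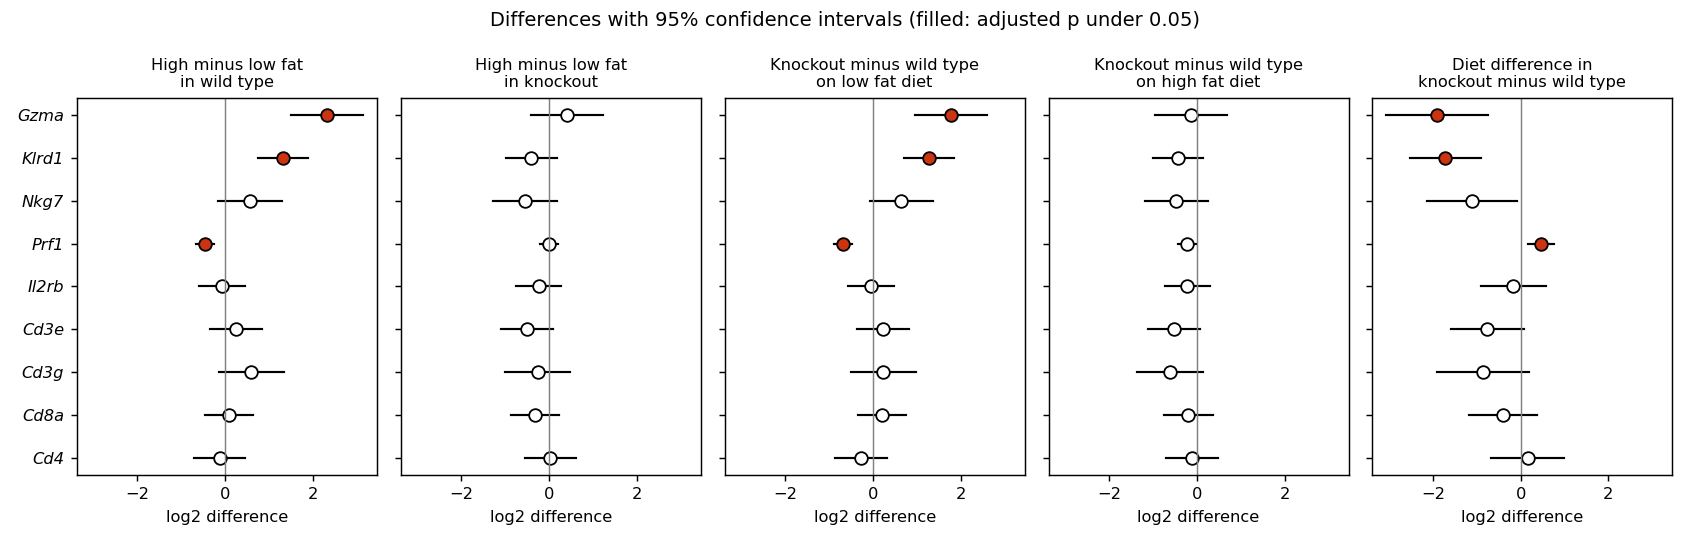
Log2 differences of the 9 tested genes with 95% confidence intervals in the 4 pairwise comparisons and in the difference of the diet effects, filled where the adjusted p is under 0.05. Gzma, Klrd1 and Prf1 are filled in the panels for diet in the wild type, genotype on the low fat diet and the difference of the diet effects, and no gene is filled in the other 2.

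Among the T cell receptor genes, Cd3e encodes the epsilon chain and Cd3g the gamma chain of CD3. Cd3e read 5.58, 6.17, 5.66 and 4.84 in wild-type low fat replicates 1 to 4, 5.90, 5.78, 6.03 and 5.57 in wild-type high fat, 6.10, 5.97, 5.64 and 5.49 in knockout low fat, and 4.42, 5.55, 5.58 and 5.64 in knockout high fat. Its groups overlapped throughout, and knockout high fat replicate 1 was the lowest of all arrays. The Cd3e differences were 0.26 for diet in the wild type (interval -0.34 to 0.85, limma adjusted p = 0.503), -0.50 for diet in the knockout (interval -1.09 to 0.09, adjusted p = 0.193), 0.24 for genotype on the low fat diet and -0.52 on the high fat diet (interval -1.11 to 0.07, adjusted p = 0.228). Without knockout high fat replicate 1 the diet difference in the knockout was -0.21 and the genotype difference on the high fat diet -0.23, and without wild-type low fat replicate 4 the genotype difference on the low fat diet was -0.004.

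Cd3g read 5.33, 5.52, 3.94 and 3.90 in wild-type low fat replicates 1 to 4, 5.21, 5.14, 5.61 and 5.13 in wild-type high fat, 5.43, 5.36, 4.53 and 4.34 in knockout low fat, and 4.17, 4.99, 4.81 and 4.65 in knockout high fat. In both low fat groups replicates 1 and 2 lay near the wild-type high fat level and replicates 3 and 4 well under it. On the high fat diet all 4 knockout arrays lay below all 4 wild-type arrays, a separation seen in 26.1% of all genes tested in that comparison. The difference there was -0.62 (interval -1.36 to 0.13, limma adjusted p = 0.262), and it passed in a fit to those 2 groups alone (adjusted p = 0.0441). The wild-type diet difference was 0.60 (interval -0.15 to 1.34, adjusted p = 0.201), which turned to -0.26 without the 5 muscle-bearing arrays and passed with array weights (0.95, adjusted p = 0.0339).

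Of the coreceptors, Cd8a encodes the alpha chain of CD8 and Cd4 the CD4 protein, which macrophages and dendritic cells can also carry. The Cd8a probe set 1425335_at read 4.40, 4.39, 4.11 and 3.71 in wild-type low fat replicates 1 to 4, 3.98, 4.05, 4.62 and 4.33 in wild-type high fat, 5.09, 4.68, 3.94 and 3.75 in knockout low fat, and 3.92, 4.14, 4.37 and 3.78 in knockout high fat. All groups overlapped, and the widest was knockout low fat at 4.37 ± 0.63 (SD, n = 4). Its differences ran from -0.31 for diet in the knockout (interval -0.87 to 0.24, limma adjusted p = 0.398) to 0.21 for genotype on the low fat diet (interval -0.34 to 0.76, adjusted p = 0.607). The other 4 Cd8a probe sets, with group means from 1.74 to 3.00, did not pass the filter.

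The Cd4 probe set 1419696_at read 4.69, 4.33, 3.81 and 3.46 in wild-type low fat replicates 1 to 4, 4.04, 3.76, 4.47 and 3.53 in wild-type high fat, 4.23, 3.97, 3.97 and 3.06 in knockout low fat, and 3.96, 3.91, 3.58 and 3.90 in knockout high fat. The groups overlapped, and at least 2 arrays of each lay under 4. Differences ran from -0.27 for genotype on the low fat diet (interval -0.85 to 0.32, limma adjusted p = 0.543) to 0.03 for diet in the knockout. Its other probe set, 1427779_a_at, had group means from 2.44 to 2.59. For Cd8a and Cd4 a shift smaller than these intervals was not detectable with these arrays.

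**Figure D3:**
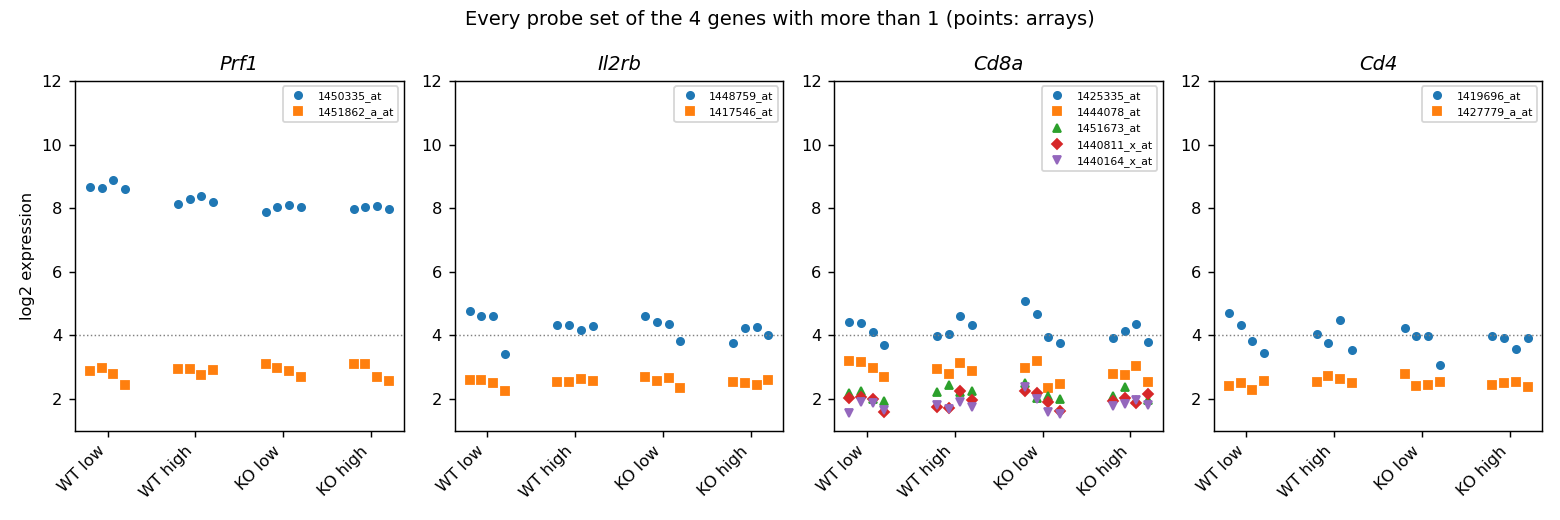
Log2 expression in every array of each probe set of Prf1, Il2rb, Cd8a and Cd4, by genotype and diet, with the filter level of 4 as a dotted line. In each gene a single probe set reaches the line, and the other probe sets stay below it in all 16 arrays, that of Prf1 between 2.42 and 3.11.

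The comparisons can be set side by side for the members as a group. For diet in the knockout 0 of the 9 tested genes passed limma's test, against 29.2% of all genes. For genotype on the low fat diet 3 of 9 passed, against 18.9%, and on the high fat diet 0 of 9, against 15.1%. The median difference of the 9 genes was 0.25 for diet in the wild type, -0.26 for diet in the knockout, 0.24 for genotype on the low fat diet and -0.23 on the high fat diet, where the medians of all genes were 0.04, -0.02, 0.04 and 0.00. On the high fat diet all 9 differences between knockout and wild type were negative, from -0.11 for Cd4 to -0.62 for Cd3g, and the smallest unadjusted p was 0.034, for Prf1. Without the 5 muscle-bearing arrays Cd4 turned to 0.04 and Cd8a to 0.02, and the rest stayed negative. The share of all genes with a negative difference was not counted. Among the 9 diet differences in the knockout the smallest unadjusted p was 0.0901, for Cd3e. The groups did not overlap for 3 of the 9 genes for diet in the wild type, against 30.8% of all genes, for 0 for diet in the knockout, against 33.1%, and for 2 genes for genotype on each diet, against 17.9% on the low fat and 26.1% on the high fat diet. With array weights Klrd1 passed for diet in the knockout (-0.59, adjusted p = 0.0367) and Prf1 for genotype on the high fat diet (-0.25, adjusted p = 0.0194).

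Whether the diet effect differed between genotypes was tested as the difference of the 2 diet differences, knockout minus wild type. It passed for 3 of 9 genes, against 13% of all genes. Gzma gave -1.91 (SE 0.55, interval -3.07 to -0.75, limma adjusted p = 0.0316), Klrd1 -1.72 (SE 0.38, interval -2.53 to -0.91, adjusted p = 0.00876) and Prf1 0.46 (SE 0.14, interval 0.16 to 0.75, adjusted p = 0.0412). For each, the wild-type low fat arrays stood apart from at least 2 of the other groups, as their values above show. Nkg7 at -1.11 (adjusted p = 0.14), Cd3g at -0.86 (adjusted p = 0.267) and Cd3e at -0.76 (adjusted p = 0.215) did not pass. The Klrd1 call held when any 1 array was left out. The Gzma call ended without any 1 of 6 arrays (wild-type high fat replicate 1, 2 or 3, knockout low fat 1 or 2, or knockout high fat 1), with adjusted p from 0.0527 to 0.0692. The Prf1 call ended without any 1 of 11 arrays (all but wild-type low fat 2 and 4, wild-type high fat 3 and knockout low fat 3 and 4), with adjusted p from 0.0543 to 0.0898, and with the probe sets averaged (0.15, adjusted p = 0.457). Without the 5 muscle-bearing arrays none of the 3 passed, with differences of -1.69 for Gzma (adjusted p = 0.103), -1.26 for Klrd1 (adjusted p = 0.095) and 0.47 for Prf1 (adjusted p = 0.212), and 3.51% of all genes passed in that fit.

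Across arrays, and after each group's mean was taken off, 8 of the 9 tested genes went up and down together. The Pearson correlation of these deviations over the 16 arrays lay between 0.40 and 0.86 for every pair of genes other than Prf1, and was highest for Nkg7 and Cd8a. Prf1 correlated with the others at -0.27 to 0.22. The low fat arrays varied most for some genes. The SD of Nkg7 was 0.77 in wild-type and 0.65 in knockout low fat, against 0.36 and 0.19 in high fat. For Cd3e the SDs were 0.55 and 0.28 in low fat, against 0.20 and 0.59. How much the correlations rest on a few low arrays was not tested. The genes whose deviations were most like those of Gzma were Ccl5 (0.90), Tmem252 (0.882) and Gimap4 (0.864), those for Klrd1 were Tex9 (0.853), AW112010 (0.85) and Cxcr3 (0.848), and those for Nkg7 were Cd3d (0.878), Cd8a (0.856) and Itgal (0.846). For Il2rb they were Cd3d (0.90), Ctsw (0.893) and Oas2 (0.888), for Cd3e Gimap3 (0.894), AW112010 (0.882) and Bicd2 (0.867), and for Cd3g Cxcl10 (0.883), Upf2 (0.88) and Nadk2 (0.878). For Cd8a they were Nkg7 (0.856), Gbp8 (0.85) and Zfr2 (0.808), and for Cd4 Bhlhb9 (0.882), Fpgt (0.882) and Ulk2 (0.875). The list for Prf1 was Zfpl1 (0.834), Nudt16 (0.828) and Hcfc2 (0.81), and held none of the other members. Among these matches Cd3d, Ctsw, Ccl5, Cxcr3 and Itgal are genes of T cells and NK cells, at 0.846 to 0.90. Others lay within that range and are on none of the gene lists used here. They include Upf2 and Nadk2 for Cd3g, Bhlhb9, Fpgt and Ulk2 for Cd4, Bicd2 for Cd3e and Tex9 for Klrd1, at 0.853 to 0.882. How high the best matches of any gene lie in these arrays was not tested, nor whether shared cells account for the matches. The matches are descriptions of the same 16 arrays, picked as the highest of 12078 genes, and carry no test.

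Of 8 other tested genes of the T cell receptor and its signalling (16 of 18 listed genes had a probe set), 5 rose with diet in the wild type and none fell, with a median of 0.95, where 20.5% of all genes tested rose and 15.2% fell. In the other comparisons 15.6% of all genes rose and 13.5% fell with diet in the knockout, 11.7% were higher and 7.24% lower in knockout on the low fat diet, and 8.58% higher and 6.47% lower in knockout with high fat feeding. The difference of diet effects was positive for 5.12% and negative for 7.87%. Thy1, a T cell surface protein that stromal cells carry too, rose by 1.49, from 7.01 to 8.50 (limma adjusted p = 3.14e-05). The adaptor Lcp2 rose by 1.25, the adhesion receptor Cd2 by 1.21, the CD3 zeta chain Cd247 by 1.00 and Ptprc, the CD45 antigen of all leukocytes that is counted among the leukocyte markers too, by 0.90. For these 5 no low fat array reached a high fat array, and 30.8% of all genes tested had groups without overlap in that comparison. Cd3d, the delta chain of CD3, had a difference of 0.55 (adjusted p = 0.255). In the knockout Lcp2 rose by 1.15 and Cd2 fell by 0.85 on the high fat diet, and the other 6 did not pass.

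Cd2 read 5.61, 5.97, 5.80 and 5.42 in wild-type low fat replicates 1 to 4, 6.68, 7.20, 6.91 and 6.84 in wild-type high fat, 6.97, 6.62, 6.79 and 6.16 in knockout low fat, and 5.54, 6.16, 5.43 and 6.02 in knockout high fat. Wild-type low fat and knockout high fat arrays thus shared the low level, and the other 2 groups the high level, with knockout low fat replicate 4 at its lower edge. On the low fat diet 4 of the 8 were higher in knockout than in wild type, Cd2 by 0.94, Thy1 by 0.83, Cd247 by 0.79 and Ptprc by 0.77, and none was lower. On the high fat diet Cd2 was lower in knockout, at -1.12 (limma adjusted p = 0.00162), and no other gene passed. The diet effect differed between genotypes for Cd2 (-2.06, adjusted p = 0.000371), Cd247 (-1.26, adjusted p = 0.0197) and Thy1 (-0.98, adjusted p = 0.0265). Without the 5 muscle-bearing arrays 3 of the 8 passed for diet in the wild type, 0 for genotype on the low fat diet and 1 for the difference of diet effects, where 21.3%, 7% and 3.51% of all genes passed. The differences whose calls ended were 0.46 for Cd247 and 0.63 for Ptprc with diet, 0.85 for Cd2, 0.71 for Thy1, 0.38 for Cd247 and 0.43 for Ptprc between genotypes, and -0.80 for Thy1 and -0.76 for Cd247 between diet effects. Thy1 passed for diet in the knockout in that fit (0.80, adjusted p = 0.00919). Without the 6 arrays the diet call of Lcp2 in the wild type ended as well (0.96, adjusted p = 0.066). With its 4 probe sets averaged Cd247 passed in none of these 3 (adjusted p = 0.205, 0.199 and 0.0612). The low fat genotype call of Cd247 ended too after quantile normalization (0.62, adjusted p = 0.0638) and in a fit to the groups compared (adjusted p = 0.0585), and that of Ptprc in the latter (adjusted p = 0.0999) and with its probe sets averaged (0.44, adjusted p = 0.126). That call ended without any 1 of 4 arrays for Cd247 (wild type 3 or 4, knockout 1 or 2, adjusted p = 0.0546 to 0.0817) and of 6 for Ptprc (wild type 1, 3 or 4, knockout 1, 2 or 3, adjusted p = 0.0531 to 0.109), and that of the diet effects for Thy1 without knockout low fat 1 or knockout high fat 4 (adjusted p = 0.0524 to 0.0548).

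**Figure D4:**
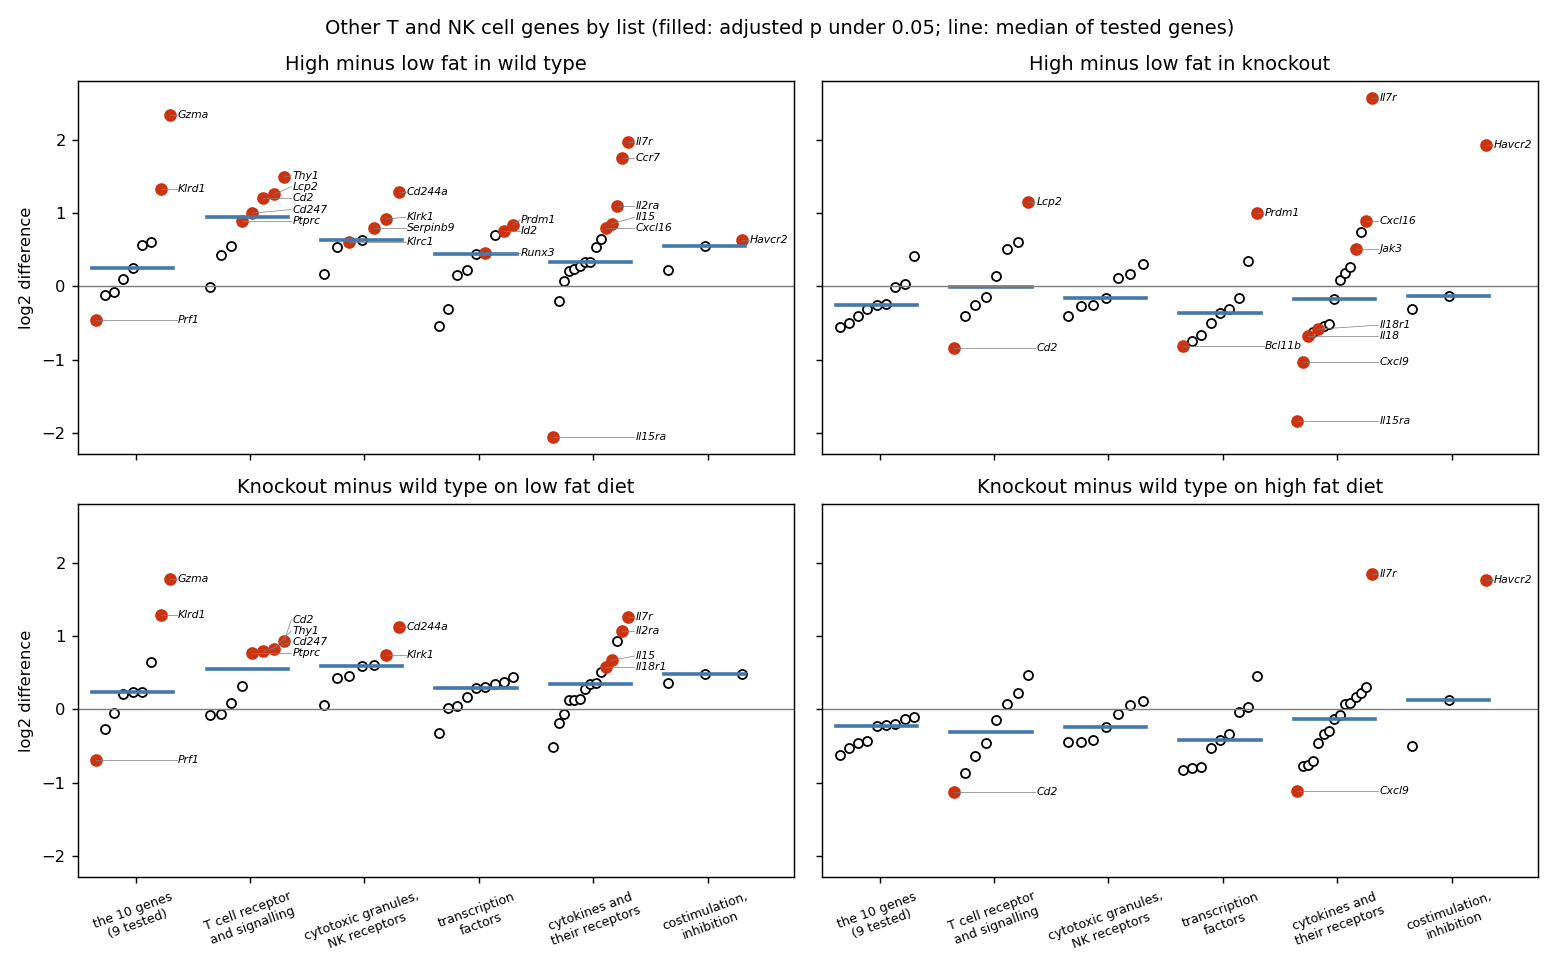
Log2 differences of the tested genes of each list (points, ordered by value) in the 4 pairwise comparisons, filled and named where the adjusted p is under 0.05, with the median of the list as a line. The median of the 8 T cell receptor genes is 0.95 for diet in the wild type and -0.01 for diet in the knockout.

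Of the other genes of cytotoxic granules and NK cell receptors, 7 were tested (20 of 22 had a probe set) and 9 lay under 4 in every array. With diet in the wild type 4 rose and none fell, where 20.5% of all genes rose and 15.2% fell. Cd244a, a receptor of NK cells and some T cells, rose by 1.28 (limma adjusted p = 0.000234), the activating receptor Klrk1 by 0.92, the granzyme B inhibitor Serpinb9 by 0.79 and Klrc1, an NKG2 chain that pairs with CD94, by 0.61. Srgn, the granule proteoglycan of many leukocytes, had a difference of 0.17 (adjusted p = 0.276). None of the 7 passed for diet in the knockout or for genotype on the high fat diet, against 29.2% and 15.1% of all genes. The smallest unadjusted p was 0.184 in the former and 0.0526 in the latter. On the low fat diet Cd244a was 1.13 higher and Klrk1 0.75 higher in knockout, where 11.7% of all genes were higher. The diet effects differed for Cd244a (-1.54, adjusted p = 0.00382) and Klrk1 (-1.18, adjusted p = 0.0163), against 13% of all genes.

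Klrk1 averaged 3.58 and Klrc1 3.78 in wild-type low fat, under the filter level. With values under 4 set to 4, the diet call of Klrc1 in the wild type (0.34, adjusted p = 0.055) and the low fat genotype call of Klrk1 (0.37, adjusted p = 0.134) ended. Both ended after quantile normalization too (0.38, adjusted p = 0.0683, and 0.52, adjusted p = 0.0757). The latter also ended without wild-type low fat 4, knockout low fat 1 or knockout low fat 2 (adjusted p = 0.0593 to 0.0696). Of the 7, 2 passed for diet in the wild type without the 5 muscle-bearing arrays and 0 in the other comparisons, against 21.3% of all genes for that diet comparison, 7% for genotype on the low fat diet and 3.51% for the difference of diet effects. The differences whose calls ended were 0.38 for Klrc1 and 0.52 for Serpinb9 with diet, 0.68 for Cd244a and 0.65 for Klrk1 between genotypes, and -1.04 for Cd244a and -1.17 for Klrk1 between diet effects. Without the 6 arrays the diet call of Klrk1 ended as well (0.89, adjusted p = 0.0849).

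Of 9 tested transcription factors (12 of 15 had a probe set), 3 rose with diet in the wild type, where 20.5% of all genes rose. Prdm1, which encodes Blimp-1 and is expressed in many lymphoid and myeloid cells, rose by 0.83 (limma adjusted p = 0.00265), Id2, which innate lymphocytes need, by 0.76 and Runx3, a factor of CD8 T cells and NK cells, by 0.45. In the knockout Prdm1 rose by 0.99 and Bcl11b, a T cell identity factor, fell by 0.82, where 15.6% of all genes rose and 13.5% fell. No factor passed in either genotype comparison, against 18.9% of all genes on the low fat and 15.1% on the high fat diet. Ikzf3, a lymphocyte zinc finger factor, was close on the high fat diet (-0.79, adjusted p = 0.0504). An unadjusted p under 0.05 was held by 2 of the 9 on the low fat and 5 on the high fat diet. The share of all genes with such a p was not counted, and it cannot be under the share that passed after adjustment. These counts are therefore no result about the factors. Tbx21, which encodes T-bet, averaged 3.80 to 4.14 in the 4 groups and passed nowhere, Eomes lay under 4 in every array, and Zbtb16 differed by -0.31 and -0.36 between diets (adjusted p = 0.116 and 0.0743). The diet effect differed for 1 factor, Runx3 (-0.77, adjusted p = 0.0238), against 13% of all genes. The Runx3 calls ended with values floored at 4 (adjusted p = 0.116 for diet and 0.135 for the difference of effects), the diet call also without any 1 of 5 arrays (wild-type low fat 1, 3 or 4, wild-type high fat 2 or 4, adjusted p = 0.0561 to 0.0826) and the other without knockout high fat 1 (adjusted p = 0.051). The Bcl11b call ended without any 1 of 6 arrays (knockout low fat 1, 2 or 3, knockout high fat 1 or 4, wild-type high fat 3, adjusted p = 0.0501 to 0.136). The diet call of Runx3 also ended with arrays centred on the median (0.37, adjusted p = 0.0585), after quantile normalization (0.19, adjusted p = 0.296) and in a fit to the groups compared (adjusted p = 0.0659), and its difference of effects after quantile normalization (-0.53, adjusted p = 0.0801). The Bcl11b call also ended with values floored at 4 (-0.65, adjusted p = 0.0744) and with no filter (adjusted p = 0.0529). For diet, 1 factor (Prdm1) passed in each genotype without the 5 muscle-bearing arrays, against 21.3% and 19.4% of all genes. Those whose calls ended were Id2 (0.62, adjusted p = 0.119), Runx3 (0.36 with diet and -0.65 between diet effects) and Bcl11b (-0.84, adjusted p = 0.0977).

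Cytokines, chemokines and their receptors that act on T and NK cells had 15 tested genes (18 of 21 had a probe set). For diet in the wild type 5 rose and 1 fell, where 20.5% of all genes rose and 15.2% fell. Il7r, the interleukin 7 receptor chain, rose by 1.97 (limma adjusted p = 0.000913), the homing receptor Ccr7 by 1.75 (adjusted p = 0.000608), Il2ra, the high-affinity interleukin 2 receptor chain, by 1.09 (adjusted p = 1.39e-05) and the NK cell growth factor Il15 by 0.85 (adjusted p = 0.000362). Which cells carry Il7r in this tissue was not tested. Ccr7 read 2.74 to 3.70 in the wild-type low fat arrays, under the filter level, where values depend on the background correction. Il15ra, which presents interleukin 15, fell by 2.06, from 9.77 to 7.71 (adjusted p = 1.85e-05). In the knockout 3 rose and 4 fell, where 15.6% of all genes rose and 13.5% fell. Among them Il7r rose by 2.57, Il15ra fell by 1.84 and Cxcl9, a chemokine that attracts T cells, fell by 1.03. Il18r1, an interleukin 18 receptor chain, had a difference of -0.58 (adjusted p = 0.00519).

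Il2ra read 3.89, 4.28, 4.17 and 4.13 in wild-type low fat replicates 1 to 4, 5.03, 5.41, 5.26 and 5.14 in wild-type high fat, 5.14, 5.11, 5.31 and 5.18 in knockout low fat, and 5.28, 5.70, 5.33 and 5.18 in knockout high fat. Its 4 wild-type low fat arrays lay apart below the other 12. On the low fat diet 4 genes were higher in knockout and none lower, against 11.7% and 7.24% of all genes. These were Il7r by 1.26, Il2ra by 1.07, Il15 by 0.67 and Il18r1 by 0.58. On the high fat diet Il7r was 1.85 higher in knockout and Cxcl9 differed by -1.11, where 8.58% of all genes were higher and 6.47% lower. The diet effect differed for 4 genes, all with a more negative value in the knockout, against 7.87% of all genes. Among them were Il2ra (-0.91, limma adjusted p = 0.00483), Il18r1 (-0.92, adjusted p = 0.00746) and Cxcl9 (-1.24, adjusted p = 0.0207). The low fat genotype call of Il7r ended without any 1 of 6 arrays (wild type 1, 3 or 4, knockout 1, 2 or 3, adjusted p = 0.0509 to 0.0984) with its probe sets averaged (adjusted p = 0.0563) and by its probe set of the largest SD (0.97, adjusted p = 0.109). By its probe set of the largest SD Cxcl9 rose by 0.92 with diet in the wild type (adjusted p = 0.027) and did not pass in the knockout (-0.80, adjusted p = 0.0612). When the 5 muscle-bearing arrays were left out, 5 of the 15 passed for diet in each genotype, 1 and 2 for genotype with low and high fat feeding, and 0 for the difference of diet effects. In that fit 21.3% and 19.4% of all genes passed for diet, 7% and 6.74% for genotype and 3.51% for the difference of effects. The differences whose calls ended were 1.04 for Il7r, 0.57 for Il15 and 0.66 for Il18r1 between genotypes on the low fat diet, and -0.88 for Il2ra, -1.01 for Il18r1 and -0.98 for Cxcl9 between diet effects. Without the 6 arrays more calls ended, those of Il7r (1.81, adjusted p = 0.0503), Ccr7 (1.45, adjusted p = 0.0708) and Il15 (0.66, adjusted p = 0.0664) for diet in the wild type and those of Il7r (1.95, adjusted p = 0.0563) and Cxcl9 (-1.24, adjusted p = 0.0588) for genotype on the high fat diet.

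Among costimulatory and inhibitory receptors, 3 genes were tested (9 of 12 had a probe set), Icos, Lag3 and Havcr2. Havcr2, the inhibitory receptor TIM-3 that myeloid cells carry too, read 5.70, 5.14, 5.45 and 5.17 in knockout high fat replicates 1 to 4 and 2.68 to 4.23 in the other 12 arrays. Outside that group only wild-type high fat replicate 2, at 4.23, reached the filter level of 4. Havcr2 thus passed the filter through the group where it was high, so its p-values against that group describe it and carry no independent support. It rose by 1.92 with diet in the knockout (limma adjusted p = 1.73e-05), was 1.77 higher in knockout on the high fat diet (adjusted p = 0.000161), and its diet effect differed by 1.29 (adjusted p = 0.0156). Its rise of 0.63 in the wild type (adjusted p = 0.0386) ended with values floored at 4 (0.06, adjusted p = 0.73), after quantile normalization (0.12, adjusted p = 0.698), with arrays centred on the median (0.55, adjusted p = 0.0606), with no filter (adjusted p = 0.0502), in a fit to the groups compared (adjusted p = 0.0774), without the 5 muscle-bearing arrays (0.47, adjusted p = 0.262), and without wild-type low fat 3 or 4 or wild-type high fat 2 or 4 (adjusted p = 0.0753 to 0.139). The difference of its diet effects was 1.67 without the 5 arrays (adjusted p = 0.0358) and without the 6 (adjusted p = 0.0613), where the call ended. Icos, a costimulatory receptor of activated T cells, differed by 0.55 with diet in the wild type (adjusted p = 0.077) and Lag3, an inhibitory receptor, by 0.48 between genotypes on the low fat diet (adjusted p = 0.0525).

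Markers of other cells are counted here against the share of all 12078 genes tested. With diet 20.5% of all genes rose and 15.2% fell in the wild type, and 15.6% and 13.5% in the knockout. In knockout 11.7% were higher and 7.24% lower on the low fat diet, and 8.58% and 6.47% on the high fat diet. A count near its share is no result about those cells. Of 10 genes of leukocytes in general, 10 rose with diet in the wild type, 9 in the knockout, 8 were higher in knockout on the low fat diet and 2 on the high fat diet. Their summed level on a linear scale was 13322 to 15955 in wild-type low fat, 18044 to 24002 in knockout low fat, 23132 to 34974 in wild-type high fat and 38211 to 40393 in knockout high fat. Of 12 macrophage markers 7 rose and 1 fell with diet in the wild type, 7 rose in the knockout, and 1 on the low fat and 4 on the high fat diet were higher in knockout, with sums of 23974 to 32929, 36929 to 41652, 32602 to 37397 and 45870 to 50170 in wild-type low and high fat and knockout low and high fat. Of 7 tested dendritic cell markers 4 rose with diet in the wild type, among them Itgax, which encodes CD11c, by 4.18, and 4 were higher in knockout on the low fat diet, while in the knockout 1 rose and 3 fell with diet. Of 7 tested B cell markers 4 rose with diet in the wild type and 3 in the knockout, and 2 were higher in knockout on the high fat diet. Of the lymph node markers Glycam1 and Madcam1 lay under 4 in every array, and of the 2 tested 1 fell with diet in the knockout and none passed elsewhere. Of 8 tested mast cell, eosinophil and neutrophil markers 2 rose with diet in the wild type, 1 rose and 1 fell in the knockout, and 3 were higher and 1 lower in knockout on the low fat diet, with 1 higher on the high fat diet. Of 8 adipocyte markers 1 rose and 3 fell with diet in the wild type and 2 fell in the knockout, and 1 was higher and 2 lower in knockout on the low fat diet and 1 lower on the high fat diet. No list holds a gene at 0, and the part of these cells in the T cell and NK cell results was not tested.

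Muscle transcripts fell unevenly over the groups. The sum of 8 muscle markers ran from 889 to 10427 in wild-type low fat, 2869 to 5670 in wild-type high fat, 1638 to 9096 in knockout low fat and 1719 to 3816 in knockout high fat. Of the 8, 0 passed limma's test or had an unadjusted p under 0.05 in any comparison, where 13% to 35.6% of all genes passed. The summed level of the 10 epithelial markers was 304.5 to 1355 in 15 arrays and 15159 in wild-type high fat replicate 4. Of the 3 epithelial markers tested 1 fell with diet in the knockout, where 13.5% of all genes fell. On the high fat diet 2 were lower in knockout, where 6.47% of all genes were, and none passed elsewhere. The wild-type low fat arrays with muscle transcripts, replicates 3 and 4, held the 2 lowest values of their group for Klrd1, Nkg7, Cd3g, Cd8a and Cd4. Replicate 4 held the lowest for every tested member, and replicate 3 the highest for Gzma and Prf1. The other muscle-bearing arrays did not share this order. Wild-type high fat replicate 3 held the highest value of its group for Prf1, Nkg7 (5.73), Cd3e (6.03), Cd3g (5.61), Cd8a (4.62) and Cd4 (4.47), and the lowest for Il2rb. Knockout low fat replicate 2 held the highest for Klrd1 (7.35) and the lowest for no tested member. Knockout high fat replicate 4 held the highest for Gzma and Cd3e and the lowest for Cd8a. Knockout low fat replicate 4 held the lowest value of its group for 7 of the 8 tested members other than Prf1, all but Nkg7.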

How the data were processed

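RNA of white adipose tissue from 16 samples, 4 for each genotype and diet, was hybridized to Affymetrix mouse arrays. The authors deposited log2 expression values per probe set. The submitters' processing notes name GCRMA 2.20.0 and R 2.11.1. GCRMA corrects background by probe sequence and normalizes across arrays, so values at the dim end depend on that correction. No filter or batch correction by the authors is described in the labels.

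The probe table gave 1 symbol to 34945 of 45037 probe sets, several to 932 and none to 9160. Of the probe sets with 1 symbol, 34741 had a gene identifier that was found in the RefSeq gene table. For a gene with several such probe sets, the brightest was used. A gene was tested if 4 or more arrays reached a log2 value of 4 (12078 of 18193). limma 3.58.1 in R 4.3.3 fitted 1 mean per group to all 16 arrays, with two-sided moderated tests (12 residual and 3.84 prior degrees of freedom) and Benjamini-Hochberg adjustment over all genes tested, at a threshold of 0.05. The procedure was tested on simulated data.

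The members, the gene lists and the tests were chosen with earlier results of these data known. Genes were named from each list by the smallest p, up to 4 per diet comparison and up to 2 per genotype comparison. The lists held other T cell receptor genes, cytotoxic and NK cell genes, transcription factors, cytokines and receptors, costimulatory and inhibitory receptors, and markers of other cells. Alternatives changed the filter, a floor at 4, the probe sets, the scaling, the variance model, array weights, the arrays fitted and the threshold or left out each array in turn, and 1 used the replicate number as a block. Leaving out 5 or 6 arrays with muscle or urothelial transcripts was chosen after seeing the data.

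Over 24 pairs of arrays with the same replicate number, deviations from the group means correlated at -0.321 to 0.199, with 5 over 0.1. These values gave no sign of a pairing by number. They cannot show that arrays of the same number shared no batch.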

Additional observations from a re-analysis of the deposited data

Results flagged for a closer look

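Of 176 groups of 4 values examined (17 probe sets of the T cell and NK cell genes and 27 other named genes), 11 held a value far from the other 3, where chance gives about 1 in 20. In knockout high fat, replicate 1 read 4.42 for Cd3e against 5.55 to 5.64, and replicate 3 read 3.58 for Cd4 against 3.90 to 3.96. In wild-type high fat, replicate 3 read 5.61 for Cd3g against 5.13 to 5.21 and 2.75 for the dim Prf1 probe set 1451862_a_at against 2.92 to 2.94, replicate 2 read 2.44 for the Cd8a probe set 1451673_at against 2.22 to 2.24, and replicate 1 read 8.13 for Il15ra against 7.53 to 7.61. In wild-type low fat, replicate 4 read 3.40 for Il2rb against 4.61 to 4.77, 4.33 for Cd3d against 5.80 or more and 1.57 for the Cd8a probe set 1440811_x_at against 2.01 to 2.06, and replicate 2 read 4.17 for Runx3 against 3.69 to 3.72. In knockout low fat, replicate 4 read 9.73 for Id2 against 10.34 to 10.46.

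The effect of the high fat diet differed between knockout and wild type, by limma's test of the difference, for 13 of the genes described. Among all genes tested 13% passed. The 27 other named genes were picked by small p in these same arrays, so the count cannot be read against that share. The values, knockout minus wild type, were -1.91 for Gzma, -1.72 for Klrd1 and 0.46 for Prf1. They were -2.06 for Cd2, -1.26 for Cd247 and -0.98 for Thy1, -1.54 for Cd244a and -1.18 for Klrk1, and -0.77 for Runx3. Among cytokine receptors and chemokines they were -0.91 for Il2ra, -0.92 for Il18r1 and -1.24 for Cxcl9. For Havcr2, which passed the filter through the knockout high fat arrays, the value was 1.29. Without the 5 muscle-bearing arrays only Cd2 (-2.05, limma adjusted p = 0.0167) and Havcr2 (1.67, adjusted p = 0.0358) kept the call.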

How the results depend on the processing

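The calls of Gzma, Klrd1 and Prf1 for diet in the wild type and for genotype on the low fat diet held in each of the 16 fits that left out 1 array and under both other scalings. Counts of the T cell and NK cell genes called were 3 for diet in the wild type, 3 for genotype on the low fat diet, 3 for the difference of diet effects and 0 in the other 2 comparisons. With array weights they were 5 for diet in the wild type, 5 for the difference of effects, 1 for diet in the knockout and 1 for genotype on the high fat diet. A fit to the groups compared alone gave 1 for genotype on the high fat diet, and a threshold of 0.01 gave 1 for the difference of effects. Leaving out 1 array gave 1 to 3 for the difference of effects. Without the 5 muscle-bearing arrays that count was 0, and without these and wild-type high fat replicate 4 it was 0, with 1 for diet in the wild type and 1 for genotype on the low fat diet. The causes were not tested. Fits with fewer arrays have fewer degrees of freedom, and some differences moved in size too. Without the 5 arrays the low fat genotype difference of Klrd1 went from 1.29 to 0.73, and that of Prf1 from -0.68 to -0.64.

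Over all genes, the calls were 4304 for diet in the wild type, 3523 for diet in the knockout, 2284 and 1818 for genotype with low and high fat feeding, and 1569 for the difference of effects. In that order they were 7644, 6012, 3989, 2869 and 2687 with each probe set tested on its own, 2733, 2059, 1060, 837 and 576 at 0.01, 2567, 2341, 845, 814 and 424 without the 5 arrays, and 1778, 2226, 755, 486 and 307 without the 6. Array weights gave 5354 for diet in the knockout, 3424 for genotype on the high fat diet and 2481 for the difference of effects, and the groups compared alone gave 1292 for genotype on the low fat diet. Leaving out 1 array gave 3581 to 4735, 2673 to 3821, 1426 to 3075, 1084 to 2079 and 1098 to 2382. Counts moved by over 1.5 times without wild-type low fat replicate 2 (2382 for the difference of effects), knockout high fat replicate 1 (1084) or wild-type high fat replicate 3 (1204) for genotype on the high fat diet, and knockout low fat replicate 1 (1426) or 2 (1515) on the low fat diet. The share of calls that were higher was 57.4%, 61.7% and 39.4% for diet in the wild type, genotype on the low fat diet and the difference of effects, 44.5%, 47.5% and 49.6% with arrays centred on the median, and 44.8%, 46.7% and 52.8% after quantile normalization.

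With the replicate number as a block, which the data did not bear out as a pairing, no call of the 9 tested genes changed (3, 0, 3, 0 and 3 called), and over all genes 4188 were called for diet in the wild type. No array correlated best with its own number (0 of 16). Gzma, for example, had an adjusted p of 0.0249 for the difference of effects under the block. Dim probe sets limit the rest: Gzmb and 7 other probe sets did not pass the filter.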
